A study of Homo sapiens with 18 samples.

Results

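The 9 genes described here make, salvage or destroy the deoxynucleotides from which DNA is built: RRM1, RRM2, RRM2B, TYMS, TK1, DCK, DUT, DTYMK and SAMHD1. They were chosen by name, and all 9 were found among the 22136 genes counted at 2 days and the 21276 genes counted at 7 days. The cells were C4-2B, a human prostate cancer line that grows without androgen, with the genotype labelled wild-type in every group. The authors cite reports that the line carries some mutations in BRCA2 and other homologous recombination genes, without being functionally deficient in that repair. In the first experiment the cells received DMSO vehicle (VEH) or VIC-1911 at 0.1 µM (VIC), an inhibitor of the mitotic kinase Aurora A, for 2 days. In the second they received DMSO vehicle, VIC-1911 at 0.1 µM, olaparib at 1 µM (OLA), an inhibitor of the DNA repair enzyme PARP, or both drugs at those doses (COMBO) for 7 days. Each of the 6 groups had 3 poly(A) RNA-seq libraries, 18 in all. The labels do not say whether the 3 were separate cultures, so p-values measure the spread between these libraries, which may be technical. The model is 1 cell line at 1 dose of each drug.

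Libraries held 3245273 to 7184420 counted reads at 2 days and 4967931 to 19684208 at 7 days, where OLA replicate 1 was the lowest. Markers of the labelled cell type were present: all 10 markers of prostate luminal cells averaged at least 1 FPKM, and their summed level was 2535 to 2826 FPKM at 2 days and 2940 to 4485 FPKM at 7 days. The summed levels of fibroblast, leukocyte and endothelial markers reached 2.42, 10.1 and 0.754 FPKM at most. At 7 days the VEH and VIC libraries carry one run of library numbers in the labels and the OLA and COMBO libraries another, so that in comparisons of OLA or COMBO with VEH, and of COMBO with VIC, the drug and the run of numbers cannot be told apart. VIC against VEH and COMBO against OLA lie within one run.

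Ribonucleotide reductase removes an oxygen from ribonucleotides and so supplies all 4 deoxynucleotides. RRM1 is its large, catalytic subunit, and RRM2 is the small subunit of dividing cells, made from S phase on and destroyed late in the cell cycle. RRM2B, also called p53R2, is an alternative small subunit that p53 induces after DNA damage and that serves DNA repair and mitochondrial DNA in cells outside S phase. DUT splits dUTP to dUMP, which keeps uracil out of DNA; TYMS methylates dUMP to dTMP, and DTYMK phosphorylates dTMP. TK1 and DCK are salvage kinases, for thymidine and for deoxycytidine and purine deoxynucleosides, and SAMHD1 breaks deoxynucleotides down. Most of the synthesis genes are known targets of the E2F factors, which switch on S-phase genes when the retinoblastoma protein is inactivated, and p53 opposes this through CDKN1A (p21). The question here is how S-phase genes such as RRM2, TYMS and TK1 and the p53 target RRM2B were expressed under a mitotic kinase inhibitor, a PARP inhibitor and both.

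Sequence before the start sites is shown for 4 of the members; that of RRM2B was not analysed here, nor was its position. Promoter windows of RefSeq (GRCh38.p14), 250 bases before each listed start, were searched on both strands for CCAAT, for 4 E2F-type words (TTTGGCGC, TTTGCCGC, TTTCGCGC and TTTCCCGC) and for TTTGAA, the core of the CHR element of cell cycle genes. CCAAT occurs in 32% of all 35116 such windows, an E2F word in 2.79% and TTTGAA in 13.3%. The windows below belong to RRM2, TK1 and TYMS, which differed by more than 2-fold under VIC-1911 at 7 days, and to DUT, which differed least under VIC-1911 at 7 days; where a gene has several starts, the one with the most matches is printed. Capitals mark the matches, which do not overlap each other.
RRM2 (chr2:10122489-10122738, plus strand): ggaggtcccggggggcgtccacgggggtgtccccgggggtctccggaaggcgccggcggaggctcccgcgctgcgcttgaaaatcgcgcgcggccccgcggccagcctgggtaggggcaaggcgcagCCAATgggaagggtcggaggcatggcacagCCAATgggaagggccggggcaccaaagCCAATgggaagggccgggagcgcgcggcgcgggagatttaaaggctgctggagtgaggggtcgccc
TK1 (chr17:78187053-78187302, minus strand): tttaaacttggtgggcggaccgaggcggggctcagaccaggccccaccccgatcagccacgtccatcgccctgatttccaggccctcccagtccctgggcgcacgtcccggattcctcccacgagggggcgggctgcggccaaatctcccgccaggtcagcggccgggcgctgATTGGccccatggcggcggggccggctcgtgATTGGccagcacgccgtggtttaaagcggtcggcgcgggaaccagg
TYMS (chr18:657403-657652, plus strand): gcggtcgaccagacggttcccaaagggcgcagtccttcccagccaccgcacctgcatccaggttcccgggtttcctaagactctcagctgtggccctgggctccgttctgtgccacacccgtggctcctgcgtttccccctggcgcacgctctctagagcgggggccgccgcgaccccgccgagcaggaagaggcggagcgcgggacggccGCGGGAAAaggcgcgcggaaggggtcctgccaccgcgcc
DUT (chr15:48331947-48332196, plus strand): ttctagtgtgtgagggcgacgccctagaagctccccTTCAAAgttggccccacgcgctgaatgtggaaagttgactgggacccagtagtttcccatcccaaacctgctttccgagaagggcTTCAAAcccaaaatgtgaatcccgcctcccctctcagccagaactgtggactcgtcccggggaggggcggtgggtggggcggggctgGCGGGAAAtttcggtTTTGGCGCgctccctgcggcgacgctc
RRM2 held 3 CCAAT matches, 119 to 123, 89 to 93 and 62 to 66 bases before its start, and 2.93% of all windows held 3 or more. TK1 held 2, seen on this strand as ATTGG. TYMS held 1 E2F word, 32 to 39 bases before its start, and DUT held 2 E2F words and 2 TTTGAA matches. The windows of the other DUT starts and of the other TK1 start held no match, and that of the other RRM2 start held 1 CCAAT. The shares are per window and do not allow for the choice of the window with the most matches. Of the other members searched, DTYMK and SAMHD1 had 2 CCAAT matches each, RRM1 had 1 CCAAT and 1 TTTGAA, and DCK had none of the 3 motifs in this window. A match is a description of letters and not evidence of a bound factor.

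In GRCh38 (GENCODE gene models) RRM1 lies on chromosome 11 from 4094707 to 4138932, RRM2 on chromosome 2 from 10120698 to 10211725, DTYMK on chromosome 2 from 241675747 to 241686944, TYMS on chromosome 18 from 657653 to 673578, DUT on chromosome 15 from 48331011 to 48343373, TK1 on chromosome 17 from 78174091 to 78187233, DCK on chromosome 4 from 70992538 to 71030914 and SAMHD1 on chromosome 20 from 36890229 to 36951893. TYMS shares 3261 bases of its span with ENOSF1 and 698 with TYMSOS, both on the opposite strand, and DCK shares 29912 with MOB1B on its own strand. Whether reads were counted by strand is not stated, so reads from the shared stretches cannot be assigned with certainty, and TYMS and DCK values are uncertain to that extent. ENOSF1 and TYMSOS moved apart under VIC at 7 days: ENOSF1 fell by 0.59 on the log2 scale (edgeR adjusted p = 2.01e-07) and TYMSOS, at 12 to 152 counts a library at 7 days, rose by 1.603 (edgeR adjusted p = 1.27e-07). Their part in the TYMS values was not tested.

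TK1 was the most abundant of the 9 per length in every group, and the order of the others depended on time and drug. FPKM, the number of fragments scaled to the length of the transcript and to the depth of the library, allows levels of different genes to be set side by side. In VEH at 7 days TK1 averaged 38.3 FPKM, DUT 26.9, DTYMK 20.8, RRM1 17.3, RRM2B 11.8, RRM2 11.5, SAMHD1 6.62, DCK 4.92 and TYMS 3.97. The libraries of RRM2B (11.2 to 12.8 FPKM) and RRM2 (11.1 to 12.1) overlapped, and those of DUT (26.1 to 28.1), DTYMK (18.4 to 24.3) and RRM1 (15.8 to 18.4) followed each other without overlap, though DTYMK and RRM1 nearly touched. SAMHD1, DCK and TYMS were the lowest, and DCK (4.64 to 5.26) overlapped TYMS (3.44 to 4.69) at its edge. In VEH at 2 days the same 2 small-subunit genes stood far apart, RRM2 at 39.9 FPKM and RRM2B at 12.4.

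**Figure D1:**
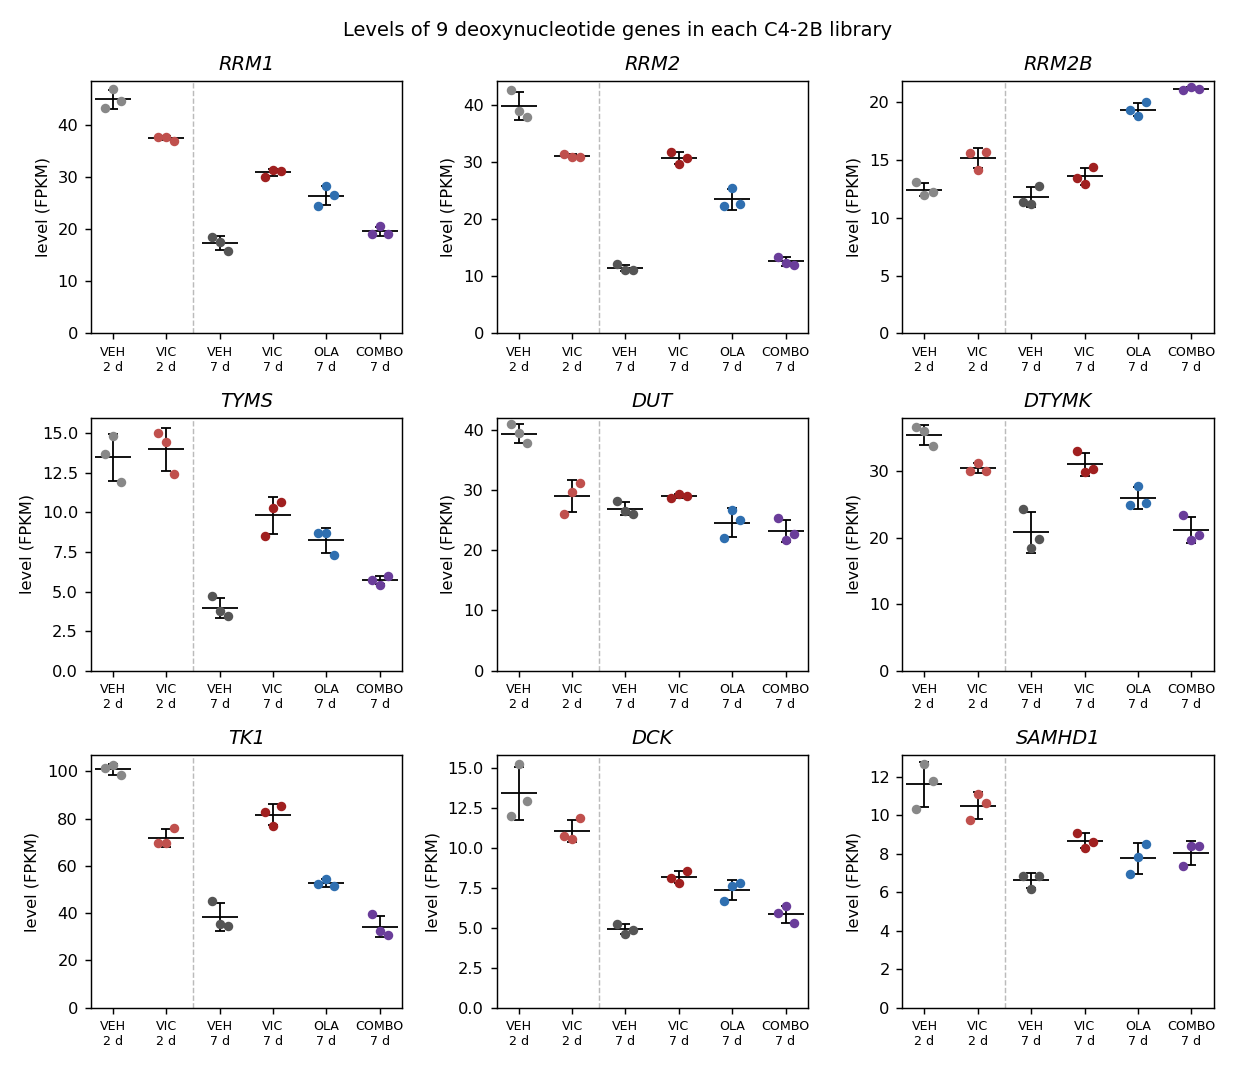
Level in FPKM (vertical axes, from 0, a scale for each gene) of the 9 genes in each of the 18 libraries, by group along the horizontal axis; points are libraries, the bar is the mean and the whiskers are 1 SD (n = 3). RRM2, TYMS and TK1 are high in both 2-day groups, low in VEH at 7 days and higher in VIC and OLA than in COMBO, whereas RRM2B is highest in COMBO.

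At 2 days VIC-1911 lowered part of the S-phase set and raised RRM2B. RRM1, RRM2, DUT and TK1 fell, RRM2B rose, and TYMS, DTYMK, DCK and SAMHD1 did not pass the test, so that 4 members of 9 were lower and 1 higher. Of all 12241 genes tested, 7.19% were lower and 7.50% higher. No member changed by as much as 1.5-fold, a limit that 0.825% of genes passed upward and 1.33% downward. A gene passed when its adjusted p in edgeR's quasi-likelihood test was below 0.05.

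RRM2 read 42.6, 38.9 and 38.0 FPKM in the VEH libraries and 31.4, 30.9 and 30.9 FPKM in the VIC libraries. All 3 VIC libraries were below all 3 VEH libraries, as for 15.1% of genes, and the log2 fold change was -0.33 (SE 0.06, edgeR adjusted p = 3.49e-05), or 1.26-fold lower. RRM1, the partner subunit, fell from 44.8 to 37.4 FPKM on average (log2 fold change -0.24, SE 0.05, edgeR adjusted p = 0.00226), without overlap between the groups. RRM2B went the other way, with 13.1, 11.98 and 12.2 FPKM in VEH and 15.5, 14.1 and 15.7 FPKM in VIC. Its groups did not overlap either (15.5% of genes were higher in this way), and it rose by 0.34 on the log2 scale (SE 0.07, edgeR adjusted p = 0.000624).

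The largest fall by value among the 9 was that of TK1. Its VEH libraries read 101, 103 and 98.3 FPKM and its VIC libraries 69.5, 69.6 and 76.1 FPKM, a log2 fold change of -0.47 (SE 0.05, edgeR adjusted p = 2.87e-08). DUT fell by 0.44 on the log2 scale (SE 0.07, edgeR adjusted p = 6.15e-06), from 40.9, 39.4 and 37.8 FPKM to 26.1, 29.7 and 31.2 FPKM. Both genes were thus about equally reduced, and neither had overlapping groups. TYMS, which acts between DUT and DTYMK, had 78 to 193 counts a library at this time, and its log2 fold change of 0.05 had a 95% interval of -0.17 to 0.28. DTYMK stood near the threshold, with a log2 fold change of -0.21 (edgeR adjusted p = 0.0575) that passed under 4 of the other normalizations and tests tried. For DCK the value was -0.24 (95% interval -0.44 to -0.05, edgeR adjusted p = 0.0777; 0.0438 without VIC replicate 3) and for SAMHD1 it was -0.11 (-0.29 to 0.07).

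After 7 days of VIC-1911 alone RRM1, RRM2 and TK1, which had been lower than VEH at 2 days, were higher than VEH. In all, 8 of the 9 were higher and none lower, RRM2, TYMS and TK1 by more than 2-fold, and only DUT did not pass. Among all 14409 genes tested 26.6% were higher and 25.8% lower, and by at least 2-fold 3.46% were higher and 3.43% lower.

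RRM2 read 12.1, 11.1 and 11.1 FPKM in VEH and 31.8, 29.7 and 30.7 FPKM in VIC. Every VIC library was thus above 2 times every VEH library, and the log2 fold change was 1.37 (SE 0.06, edgeR adjusted p = 7.77e-18). TYMS rose from 4.69, 3.79 and 3.44 FPKM to 8.49, 10.3 and 10.6 FPKM, by 1.24 on the log2 scale (SE 0.12, edgeR adjusted p = 4.05e-10). TK1 rose from 45.2, 35.2 and 34.5 FPKM to 82.9, 76.9 and 85.3 FPKM, by 1.04 (SE 0.08, edgeR adjusted p = 2.00e-12). For these genes the groups lay far apart; 29.8% of genes were higher without overlap. RRM1 rose by 0.78, DCK by 0.69 and DTYMK by 0.52 on the same scale, again without overlap, and SAMHD1 rose by 0.35. RRM2B read 11.3, 11.2 and 12.8 FPKM in VEH and 13.4, 12.9 and 14.4 FPKM in VIC. Its groups overlapped in CPM (counts scaled to the library total after TMM normalization), its log2 fold change was 0.18 (SE 0.06, edgeR adjusted p = 0.00951), and the call was lost without VEH replicate 1 (0.13, edgeR adjusted p = 0.0796), without VEH replicate 2 (0.13, edgeR adjusted p = 0.112) or without VIC replicate 3 (0.13, edgeR adjusted p = 0.0882). DUT had a log2 fold change of 0.06 (95% interval -0.06 to 0.19).

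Between the times the levels of the S-phase members differed in the VEH groups more than in the VIC groups. RRM2 averaged 39.9 FPKM in VEH at 2 days and 11.5 at 7 days, a ratio of 3.48, while it averaged 31.1 FPKM in VIC at 2 days and 30.7 at 7 days. TYMS in vehicle was 3.39 times as high at 2 days as at 7 days, DCK 2.72, TK1 2.63, RRM1 2.596, SAMHD1 1.75, DTYMK 1.71 and DUT 1.46 times, and RRM2B 1.06 times. In the VIC groups the same ratios ran from 0.878 for TK1 to 1.43 for TYMS. The median of this vehicle ratio over 10726 genes was 1.06. It was 2.55 over the 22 S-phase and E2F comparison genes, 21 of which were above 1, and 1.18 over 29 p53 target genes. The tables of the 2 times were made separately, so these ratios are given as levels and with no test, and what differed between the vehicle cells besides time was not tested.

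In 1 joint fit of the 12 VEH and VIC libraries of both times, the VIC-1911 effect at 7 days was higher than that at 2 days for 8 of 9 members, against 14.6% of the 13830 genes in that fit that were higher and 14.2% that were lower. The difference of the log2 fold changes was largest for RRM2 (1.69, SE 0.08, edgeR adjusted p = 4.60e-22), followed by TK1 (1.49), TYMS (1.17) and RRM1 (1.00). RRM2B was the member that did not pass, with a difference of -0.17 (95% interval -0.36 to 0.02, edgeR adjusted p = 0.171).

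Under olaparib alone the same 8 members were higher than in the same VEH libraries. By value RRM2B was raised more and the S-phase members less than under VIC-1911. The single drugs were not tested against each other. OLA and VEH lie in different runs of library numbers, so drug and run cannot be told apart here. RRM2 alone passed 2-fold. Over all genes 28.1% were higher, 25.9% lower, and by at least 2-fold 3.63% higher and 3.53% lower. RRM2 read 22.3, 25.6 and 22.7 FPKM under olaparib (log2 fold change 1.02, SE 0.06, edgeR adjusted p = 1.20e-14), all above VEH. TYMS rose by 0.98, RRM1 and DCK by 0.59 each, TK1 by 0.43, DTYMK by 0.31 and SAMHD1 by 0.26 on the log2 scale, each without overlap of the groups (30.5% of genes were higher and 28.3% lower in this way). RRM2B read 19.3, 18.8 and 19.95 FPKM, above every VEH library, and rose by 0.71 (SE 0.06, edgeR adjusted p = 4.97e-12). DUT did not pass, at -0.13 (95% interval -0.25 to -0.00, edgeR adjusted p = 0.0842). The DTYMK call was lost without VEH replicate 2 (0.18, edgeR adjusted p = 0.0921), and that of SAMHD1 without VEH replicate 2 (0.19, edgeR adjusted p = 0.0970) or OLA replicate 3 (0.18, edgeR adjusted p = 0.119).

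**Figure D2:**
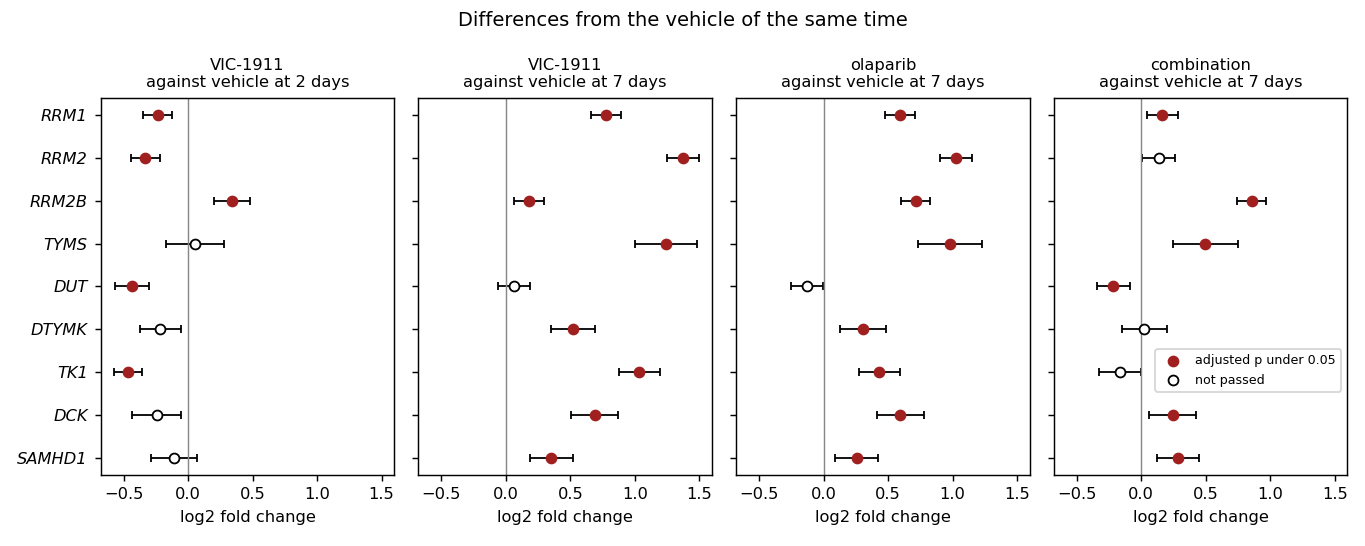
Log2 fold change against the vehicle of the same time (horizontal axes) of the 9 genes in 4 comparisons; points are edgeR estimates, whiskers 95% intervals, and filled points passed at an adjusted p under 0.05. RRM2 is at -0.33 under VIC at 2 days, 1.37 under VIC and 1.02 under OLA at 7 days and 0.13 under COMBO, while RRM2B is above 0 in all 4.

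Under the combination RRM2, TK1 and DTYMK stood at levels that overlapped those of VEH, and RRM2B at its highest level. Against VEH 5 members were higher (RRM2B, TYMS, SAMHD1, DCK and RRM1) and DUT lower, with 28.6% of all genes higher and 28.0% lower, and no member passed 2-fold (4.55% of genes did upward). Without overlap of libraries, 29.9% of genes were higher and 29.4% lower. RRM2 read 13.5, 12.4 and 11.97 FPKM in COMBO, and its log2 fold change of 0.13 had a 95% interval of 0.01 to 0.26 (edgeR adjusted p = 0.0678). It passed under upper-quartile scaling (edgeR adjusted p = 0.0367) and under scaling by library size alone (edgeR adjusted p = 0.0114), and also without VEH replicate 1 (edgeR adjusted p = 0.0496) or COMBO replicate 3 (edgeR adjusted p = 0.0435), with a log2 fold change of at most 0.19 in these 4 fits. RRM2B read 21.0, 21.3 and 21.1 FPKM in COMBO, all 3 above every other library of 7 days, and exceeded VEH by 0.85 on the log2 scale (SE 0.05, edgeR adjusted p = 4.23e-14), or 1.81-fold.

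TYMS was above VEH, at 5.76, 5.43 and 5.97 FPKM (log2 fold change 0.50, SE 0.12, edgeR adjusted p = 0.00115). TK1 read 39.6, 32.5 and 30.9 FPKM, which overlapped VEH, with a log2 fold change of -0.17 (95% interval -0.33 to -0.00, edgeR adjusted p = 0.0765). COMBO replicate 1 and VEH replicate 1 were the highest of their groups for TK1, and without COMBO replicate 1 TK1 passed as lower (-0.30, edgeR adjusted p = 0.00131), as it also did without VEH replicate 2 (-0.25, edgeR adjusted p = 0.0139) or VEH replicate 3 (-0.23, edgeR adjusted p = 0.0251). DUT fell by 0.22 (edgeR adjusted p = 0.00364), from 28.1, 26.5 and 26.1 FPKM to 25.3, 21.7 and 22.6 FPKM, and SAMHD1 rose by 0.28 (edgeR adjusted p = 0.00318). The DCK value of 0.24 (edgeR adjusted p = 0.0227) and the RRM1 value of 0.16 (edgeR adjusted p = 0.0173) stayed above 0 in every alternative. They ran from 0.17 to 0.31 and from 0.11 to 0.21, but their calls depended on the libraries kept. The DCK call was lost without VEH replicate 2 (edgeR adjusted p = 0.168), VEH replicate 3 (0.0515), COMBO replicate 1 (0.0720) or COMBO replicate 2 (0.0910). The RRM1 call was lost without VEH replicate 3 (edgeR adjusted p = 0.134) or COMBO replicate 2 (0.0732). That of SAMHD1 was lost without VEH replicate 2 (edgeR adjusted p = 0.0513), and the DTYMK value of 0.02 (95% interval -0.15 to 0.20) took either sign when single libraries were left out. Without VEH replicate 2, VEH replicate 3 or COMBO replicate 2 the count of higher members was 3, and without VEH replicate 2, VEH replicate 3 or COMBO replicate 1 the count of lower members was 2.

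Set directly against the single drugs, the combination was lower for the S-phase members. Against olaparib 6 of 9 were lower and none higher, with 6.95% of genes lower and 4.55% higher. By at least 2-fold 0.0902% of genes were lower and 0.291% higher. RRM2 was lower by 0.89 on the log2 scale (SE 0.06, edgeR adjusted p = 2.21e-11), or 1.85-fold, TK1 by 0.60, TYMS by 0.48, RRM1 by 0.43, DCK by 0.35 and DTYMK by 0.28, each without overlap (14.4% of genes were lower and 13.0% higher in this way). The DTYMK call (edgeR adjusted p = 0.0246) was lost without OLA replicate 2 (0.158), COMBO replicate 2 (0.0748) or COMBO replicate 3 (0.107) and in limma on FPKM (0.0845 and 0.0824 with the 2 pseudocounts), and the DCK call (edgeR adjusted p = 0.00581) without OLA replicate 3 (0.0637) or COMBO replicate 3 (0.0623). RRM2B was higher by value in all 3 libraries, by 0.14 (95% interval 0.03 to 0.25, edgeR adjusted p = 0.0801), and DUT (-0.09, -0.21 to 0.04) and SAMHD1 (0.03, -0.13 to 0.18) did not pass.

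Against VIC-1911 alone 7 members were lower and RRM2B higher, with 22.2% of genes lower and 20.7% higher. RRM2 was 2.36-fold lower (log2 fold change -1.24, SE 0.06, edgeR adjusted p = 2.69e-16) and TK1 2.30-fold lower (-1.20, SE 0.08, edgeR adjusted p = 1.63e-13); 1.82% of genes were lower and 2.23% higher by at least 2-fold. TYMS was lower by 0.74, RRM1 by 0.62, DTYMK by 0.50, DCK by 0.45 and DUT by 0.28, and all 7 had COMBO libraries entirely below the VIC libraries, as did 25.3% of genes, while 24.9% were higher without overlap. RRM2B was higher by 0.68 (SE 0.05, edgeR adjusted p = 1.64e-11). This comparison and those of OLA or COMBO with VEH cross the runs of library numbers. Within a run RRM2B differed by 0.18 (VIC against VEH) and by 0.14 (COMBO against OLA, edgeR adjusted p = 0.0801). SAMHD1 had a log2 fold change of -0.07 (95% interval -0.23 to 0.09).

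The interaction term asks whether the log2 fold change under both drugs equals the sum of those under each drug alone, the same VEH libraries entering each of them. For 7 members it lay below the sum, with 22.9% of genes below and 21.0% above. RRM2 rose by 1.37 and 1.02 under the single drugs, a sum of 2.40, and had 0.13 under both, which makes a difference of -2.26 (SE 0.08, edgeR adjusted p = 5.12e-19). TYMS lay 1.72 log2 units below its sum of 2.22. The terms of the others were -1.64 for TK1, -1.21 for RRM1, -1.04 for DCK, -0.80 for DTYMK and -0.33 for SAMHD1. For RRM2B the sum was 0.89 and the combination 0.85, a difference of -0.04 (95% interval -0.19 to 0.12, edgeR adjusted p = 0.737), and for DUT the term was -0.15 (-0.33 to 0.03). The SAMHD1 term (edgeR adjusted p = 0.0183) was lost in DESeq2 (DESeq2 adjusted p = 0.0514) and without VEH replicate 2 (-0.25, edgeR adjusted p = 0.0939), OLA replicate 3 (-0.25, edgeR adjusted p = 0.104) or COMBO replicate 1 (-0.24, edgeR adjusted p = 0.0794).

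**Figure D3:**
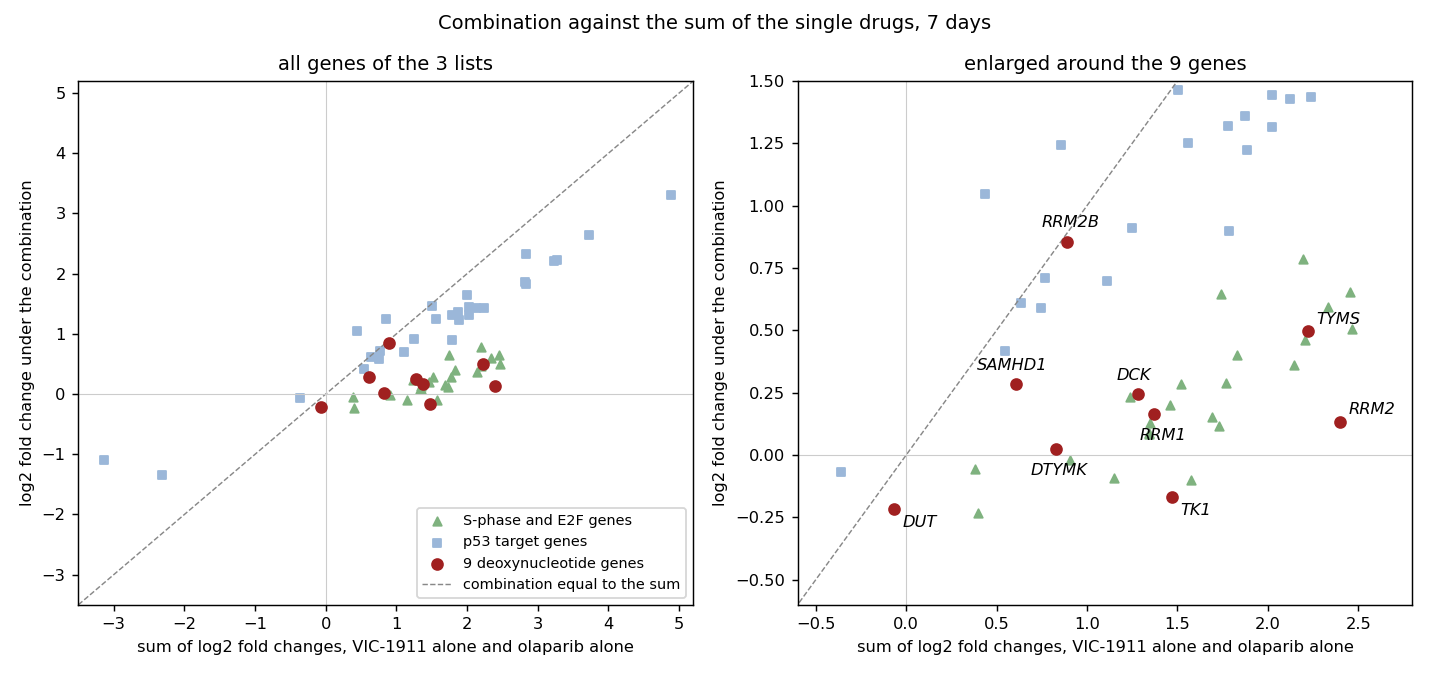
Log2 fold change under the combination (vertical axes) against the sum of the log2 fold changes under VIC-1911 and olaparib alone (horizontal axes), 7 days, for the 9 genes, 22 S-phase and E2F genes and 29 p53 target genes; the dashed line marks equality, the right panel enlarges the region of the 9 genes, and the vehicle libraries enter both axes. RRM2B lies on the line (0.89 and 0.85) and RRM2 farthest below it (2.40 and 0.13).

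The 2 small-subunit genes can be compared within a library, where scaling to depth cancels but scaling to length does not. The ratio of RRM2 to RRM2B in FPKM was 3.26, 3.25 and 3.11 in VEH and 2.02, 2.19 and 1.97 in VIC at 2 days. At 7 days it was 1.07, 0.993 and 0.871 in VEH, 2.36, 2.30 and 2.14 in VIC, 1.16, 1.36 and 1.14 in OLA, and 0.641, 0.583 and 0.568 in COMBO. Per length RRM2 was thus the more abundant transcript in every VIC and OLA library and RRM2B in every COMBO library, with VEH at 7 days near equality. In read counts, which are not scaled to length, RRM2 was below RRM2B in every OLA library (501 against 656, 1944 against 2165 and 2000 against 2667). On the log2 ratio of counts, VIC differed from VEH by -0.66 at 2 days and by 1.22 at 7 days. OLA differed from VEH by 0.32, and COMBO differed by -0.71 from VEH, by -1.02 from OLA and by -1.93 from VIC. No 2 of the groups set side by side overlapped, and each of the 6 two-sided exact permutation tests gave p = 0.1, the smallest that 3 against 3 allows.

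**Figure D4:**
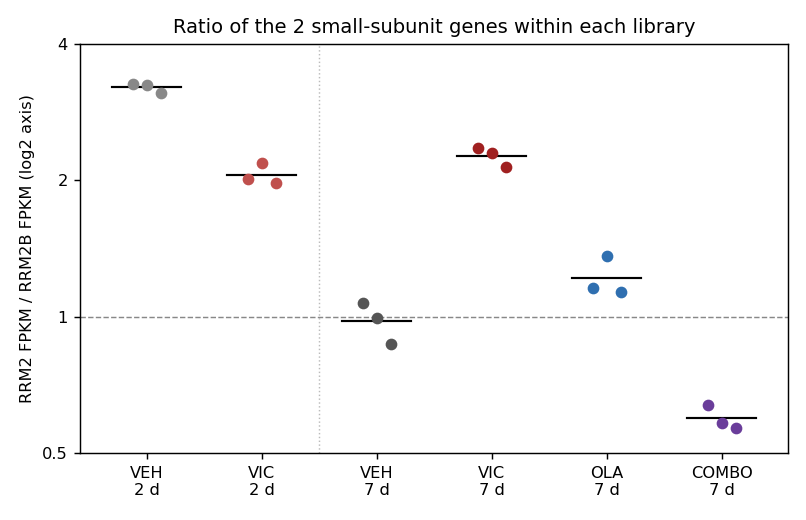
Ratio of RRM2 to RRM2B in FPKM (vertical axis, log2 scale) in each of the 18 libraries by group; points are libraries, the bar is the mean and the dashed line marks equal levels. Means run from 3.21 in VEH at 2 days to 0.597 in COMBO at 7 days.

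The S-phase genes outside the deoxynucleotide pathway gave the background for RRM2, TYMS and TK1. This list held 22 replication and E2F genes, among them PCNA, the sliding clamp of DNA polymerases, the helicase subunits MCM2, MCM4 and MCM7, the helicase partner GINS1 and the factor E2F1. At 2 days under VIC-1911 16 of 22 were lower and 1 higher, with a median log2 fold change of -0.27 beside -0.0034 over all genes; E2F1 fell by 0.43 (edgeR adjusted p = 1.35e-05) and MCM7 by 0.28 (edgeR adjusted p = 3.64e-05). In DESeq2 10 were lower and none higher, and the 1 higher gene was also lost without VEH replicate 1 or 3 or VIC replicate 1 or 3. Over all genes 7.19% were lower and 7.50% higher at 2 days. At 7 days 22 of 22 were higher under VIC-1911 (median 0.97) and 21 of 22 under olaparib (0.65). The medians over all genes were -0.0053 and 0.010. Of all genes 26.6% were higher and 25.8% lower under VIC-1911, and 28.1% and 25.9% under olaparib. Under the combination 12 of the 22 were higher and 1 lower, beside 28.6% and 28.0% of all genes. The median of the list was 0.22, beside 0.0047 over all genes. PCNA rose by 0.78 (edgeR adjusted p = 8.13e-10), GINS1 by 0.65 (1.43e-06), MCM4 by 0.59 (4.75e-10) and MCM2 by 0.40 (1.56e-07). The count of lower genes was 0 without COMBO replicate 3 and 2 without VEH replicate 2. All 22 interaction terms were below 0 and passed (median -1.33), where 22.9% of all genes were below and 21.0% above.

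The p53 targets gave the background for RRM2B. Of 30 genes listed, none of them RRM2B, 29 could be tested. At 2 days 21 were higher and 1 lower under VIC-1911 (median 0.47), beside 7.50% and 7.19% of all genes. CDKN1A, the p21 inhibitor of cyclin-dependent kinases, rose by 1.23 (edgeR adjusted p = 8.47e-21) and MDM2, the ubiquitin ligase of p53, by 0.61 (1.26e-11). The 1 lower gene was not called in DESeq2 or without VEH replicate 3 or VIC replicate 1. At 7 days 20 were higher and 3 lower under VIC-1911 (median 0.56), beside 26.6% and 25.8% of all genes. Olaparib had 26 higher and 2 lower (1.19), as had the combination (1.32). Over all genes 28.1% were higher and 25.9% lower under olaparib, and 28.6% and 28.0% under the combination. The 2 lower genes in both were SESN2 and GDF15, which were also lower under VIC-1911. Under VIC, OLA and COMBO SESN2 changed by -1.88, -1.25 and -1.09, and GDF15 by -1.11, -1.21 and -1.34. CDKN1A rose by 3.31 under the combination (edgeR adjusted p = 8.30e-29), from 25.9 to 258 FPKM on average, and the anti-proliferative gene BTG2 by 2.65 (1.06e-23), the RNA-binding gene ZMAT3 by 2.32 (1.48e-21) and MDM2 by 1.45 (2.96e-21). The combination exceeded VIC-1911 alone for 26 of the 29 and olaparib alone for 7, beside 20.7% and 4.55% of all genes. The comparison with olaparib lies within a run of library numbers. That with VIC-1911, and those of olaparib and the combination with vehicle, cross the runs, so drug and run cannot be told apart there. The 1 gene lower than under VIC-1911 was not called in DESeq2 or in limma with a pseudocount of 0.1. It was also lost without COMBO replicate 3, VIC replicate 1 or VIC replicate 2. Interaction terms were below 0 for 19 and above for 5 (median -0.46) and did not pass for the other 5. Over all genes 22.9% were below and 21.0% above. That of RRM2B, -0.04, was near those of XPC (-0.03), TP53I3 (-0.04) and FBXO22 (-0.06), which were picked out after their values were seen.

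**Figure D5:**
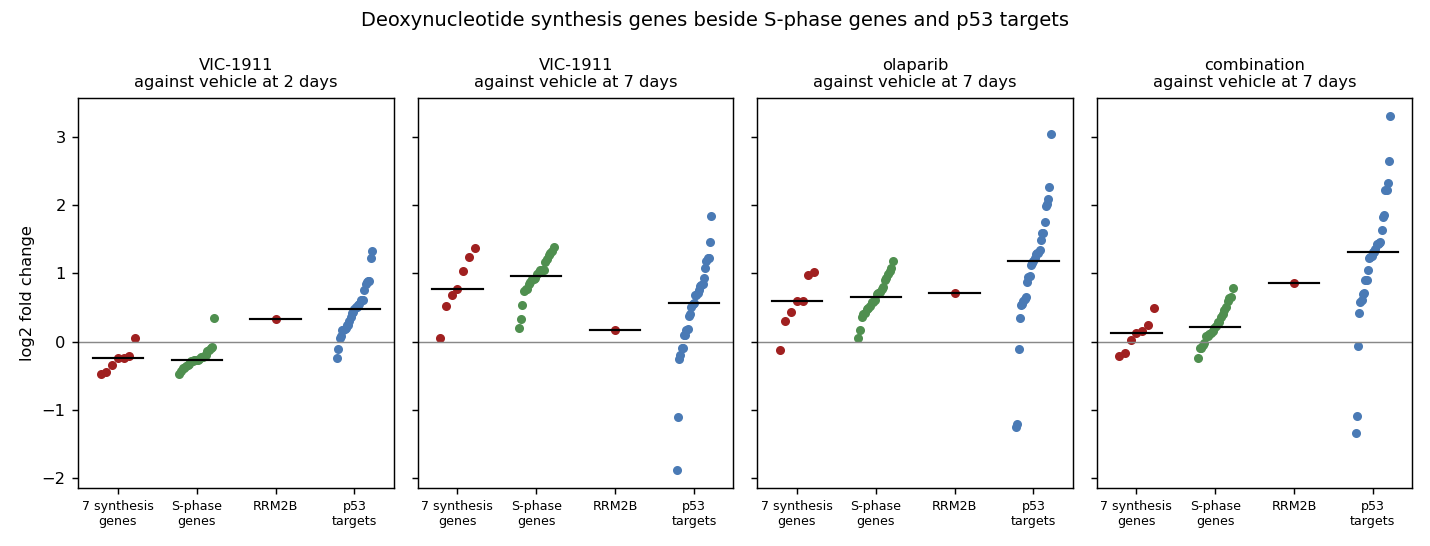
Log2 fold change against vehicle (vertical axis) of 7 synthesis and salvage genes (the 9 without RRM2B and SAMHD1), 22 S-phase and E2F genes, RRM2B and 29 p53 targets in 4 comparisons; each point is a gene, sorted by value, and bars are medians. The S-phase median goes from -0.27 at 2 days to 0.97 under VIC and 0.22 under COMBO at 7 days, and the p53 median from 0.47 to 0.56 and 1.32.

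Transcripts of 5 proteins that act on RRM2 and SAMHD1 after translation were followed as well. CCNF and FZR1 direct RRM2 to destruction, and CCNA2 with CDK1 or CDK2 phosphorylates SAMHD1. At 2 days 4 of these 5 were lower, beside 7.19% of all genes, CCNA2 by 0.42 (edgeR adjusted p = 4.74e-05) and CDK2 by 0.38 (1.62e-04). Under the combination at 7 days CDK1 was higher by 1.22 (edgeR adjusted p = 2.42e-14) and CDK2 by 0.23 (0.00436), FZR1 was lower by 0.21 (0.00399), and CCNF (0.19, edgeR adjusted p = 0.0534) and CCNA2 (0.09, edgeR adjusted p = 0.596) did not pass. Without COMBO replicate 1 the CDK2 call was lost (0.15, edgeR adjusted p = 0.0687), and CCNF passed without VEH replicate 1 (edgeR adjusted p = 0.00889) or COMBO replicate 2 (0.0394). CCNF also passed under upper-quartile scaling (edgeR adjusted p = 0.0322), scaling by library size alone (0.0142) and without the filter on counts (0.0432). Against olaparib 4 of the 5 were lower in the combination, and against VIC-1911 all 5, beside 6.95% and 22.2% of all genes.

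Other steps of nucleotide metabolism were followed with lists of their genes. Over all genes 28.6% were higher and 28.0% lower under the combination, and 7.50% and 7.19% under VIC-1911 at 2 days. Of 11 folate-cycle genes and nucleotide kinases, 5 were higher and 1 lower under the combination; the nucleoside diphosphate kinase NME1 rose by 0.70 (edgeR adjusted p = 4.07e-08), the UMP/CMP kinase CMPK1 by 0.45 (1.36e-09), the guanylate kinase GUK1 by 0.40 (1.99e-08) and NME3 by 0.19 (0.00349). Without COMBO replicate 1 only 3 were higher and NME3 was not called (edgeR adjusted p = 0.0771). At 2 days NME1 rose by 0.30 (edgeR adjusted p = 0.00668), but was not called in DESeq2 (DESeq2 adjusted p = 0.0570). Of 10 tested genes of mitochondrial salvage, breakdown and transport, 2 were higher and 6 lower under the combination. PNP, which splits purine nucleosides, rose by 1.13 (edgeR adjusted p = 3.28e-14), whereas the mitochondrial thymidine kinase TK2 fell by 0.60 (6.11e-09) and the mitochondrial pyrimidine nucleotide carriers SLC25A33 and SLC25A36 fell by 0.70 (3.07e-12) and 0.63 (3.85e-11). At 2 days 3 of the 10 were lower, with the nucleoside transporter SLC29A1 down by 0.36 (edgeR adjusted p = 0.000463) and SLC25A36 by 0.28 (0.00254); in limma on FPKM 1 was lower.

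All 5 genes that clear damaged or non-canonical nucleotides were higher under the combination, where 28.6% of all genes were higher and 28.0% lower. Among the 5, NUDT1 rose by 0.57 (edgeR adjusted p = 9.43e-04), DCTPP1 by 0.53 (2.12e-08) and ITPA by 0.26 (0.00513). At 2 days NUDT1 fell by 0.50 (edgeR adjusted p = 0.0104) and ITPA did not pass (0.23, edgeR adjusted p = 0.177). Without VEH replicate 2 of 7 days 3 of the 5 were higher, and NUDT1 at 2 days was not called without VIC replicate 1 (edgeR adjusted p = 0.107) or in DESeq2 (DESeq2 adjusted p = 0.0836). Of 5 genes of pyrimidine ribonucleotide synthesis 3 were higher: UMPS by 0.50 (edgeR adjusted p = 1.49e-08), CTPS1 by 0.45 (8.64e-08) and CAD by 0.33 (5.71e-07), while DHODH did not pass (0.16, adjusted p = 0.0919) except when scaled by library size alone (0.0286) or with the replicate block (0.0268). At 2 days none of these 5 passed, with UMPS at 0.13 (edgeR adjusted p = 0.208) and CAD at 0.09 (0.417). Of 13 genes of purine synthesis 8 were higher and 2 lower, with the adenylosuccinate synthase ADSS up by 0.60 (edgeR adjusted p = 4.52e-10), PAICS by 0.50 (4.75e-10) and IMPDH1 by 0.29 (9.17e-06) and GMPS down by 0.30 (1.43e-05). At 2 days 2 were higher, PPAT by 0.22 (edgeR adjusted p = 0.0159) and ADSS by 0.26 (0.0173). Neither was called in DESeq2 (DESeq2 adjusted p = 0.0973 and 0.117); PPAT was also lost without VEH replicate 2, and ADSS without VEH replicate 2 or 3 or VIC replicate 1 or 3.

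Likeness of pattern was measured over the 12 libraries of 7 days, as the root mean square difference of log2 CPM after each gene's VEH mean was subtracted, among 11678 genes at 1 FPKM or more. Nearest to RRM2 were NUSAP1 (0.14), KIAA0101 (0.15), TUBA1B (0.15), SPC24 (0.15) and MYBL2 (0.16), and among the members TYMS (0.25), TK1 (0.36) and RRM1 (0.37). DUT (0.90) and RRM2B (0.73) were the members farthest from RRM2. Nearest to RRM2B were COL4A5 (0.06), LAMC1 (0.10), EME2 (0.10), LDB1 (0.11) and PITPNC1 (0.11). COL4A5 had log2 fold changes of 0.16, 0.70 and 0.84 under VIC, OLA and COMBO, beside 0.18, 0.71 and 0.85 for RRM2B. It was picked as the nearest gene over these same libraries, so this closeness follows from the choice.

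The transcripts of the drugs' own targets are given for reference, as both drugs act on the proteins. AURKA rose under VIC-1911 by 0.24 at 2 days (edgeR adjusted p = 0.00755) and by 1.86 at 7 days (edgeR adjusted p = 4.31e-16), and PARP1 rose under olaparib by 0.48 (edgeR adjusted p = 1.28e-10). Each also rose under the other drug at 7 days: AURKA under olaparib by 0.48 (edgeR adjusted p = 2.89e-04) and PARP1 under VIC-1911 by 0.55 (4.37e-12). Under the combination PARP1 rose by 0.29 (edgeR adjusted p = 1.38e-06) and AURKA did not pass (0.11, edgeR adjusted p = 0.384). The AURKA call at 2 days was lost in DESeq2 (DESeq2 adjusted p = 0.0555).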

How the data were processed

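RNA-seq of C4-2B cells gave 18 libraries in 6 groups of 3, taken from the labels. The authors trimmed reads with Trimmomatic, mapped them to GRCh38 and counted them per gene with STAR (version 2.6.0 per the submitters' processing notes) and deposited raw counts per gene, unnormalized; the FPKM values were computed by the authors with their own script and deposited in separate tables for each time. Strand setting and treatment of shared reads are not given in the sources used here. Tables of the authors' own comparisons were not used.

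Counts were tested with edgeR 4.0.16 (quasi-likelihood, TMM scaling, at least 10 counts in at least 3 libraries) in R 4.3.3, with 1 fit of 6 libraries for 2 days, 1 of 12 for 7 days and a joint fit of the 12 VEH and VIC libraries; p-values were adjusted by Benjamini-Hochberg over all genes of a comparison. FPKM served for levels. On simulated counts for VIC against VEH at 2 days (12241 genes) and for COMBO against VEH at 7 days (14409 genes), 97 of 100 genes changed 1.5-fold and 100 of 100 changed 2-fold were recovered. The changed genes were drawn from the better counted ones, and all genes had the same spread between libraries. Changes below 1.5-fold, such as those of the members at 2 days, were not simulated. Replicates differed by more than sampling noise (chi-square per degree of freedom 1.26 to 5.52), so none was merged. Alternatives were DESeq2 1.42.0, limma 3.58.1 on log2(FPKM + 0.1) and log2(FPKM + 1), other scalings and filters, a replicate block and leaving out each library.

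The members and all gene lists were chosen with earlier results of these data known. Named genes were the 9 members, up to 4 genes of each list with the smallest adjusted p in COMBO against VEH and up to 2 in VIC against VEH at 2 days, the 5 genes most like RRM2 and RRM2B, AURKA, PARP1 and genes overlapping a member. Some genes that this rule names are not reported here. 2 list genes, ADSS2 and ADSS1, stand in the tables as ADSS and ADSSL1, matched through RefSeq synonyms.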

Additional observations from a re-analysis of the deposited data

Results flagged for a closer look

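Differences between groups passed a test of the difference itself for 15 member values, all from edgeR with adjustment over all genes and none explained here. The interaction of VIC-1911 and olaparib at 7 days was below 0 for RRM2 (-2.26), TYMS (-1.72), TK1 (-1.64), RRM1 (-1.21), DCK (-1.04), DTYMK (-0.80) and SAMHD1 (-0.33), in log2 units. The VIC-1911 effect was higher at 7 days than at 2 days for RRM2 (1.69), TK1 (1.49), TYMS (1.17), RRM1 (1.00), DCK (0.92), DTYMK (0.72), DUT (0.48) and SAMHD1 (0.45), in the same units. Groups of 3 libraries are too small for a test of single outlying libraries.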

How the results depend on the processing

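Counts and fold changes of the 9 members were recomputed with upper-quartile scaling, library size only, no filter on counts, DESeq2, limma on FPKM, a fit of the compared groups alone, a replicate block and without each library. The count of members higher in the combination than in olaparib went from 0 to 1 under upper-quartile scaling, the gene being RRM2B. The count lower in the combination than in vehicle went from 1 to 2 without the filter on counts, the gene being TK1. The count lower under olaparib than under vehicle went from 0 to 1 in a fit of the compared groups alone, the gene being DUT (-0.14, edgeR adjusted p = 0.0485). The cause was not tested. For the 8 comparisons, other counts of members stayed within 1.5 times the reported ones under these alternatives, leaving out a library and the replicate block excepted. Under the same alternatives other than leaving out a library, 516 of 531 member fold changes kept their direction and side of the threshold, 11 passed it and 4 lost it, and none changed direction. DESeq2 lost the DCK call in the combination against vehicle (DESeq2 adjusted p = 0.0538). At 2 days DESeq2 called 10 S-phase genes lower in place of 16.

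Leaving out single libraries moved the count of members higher under the combination against vehicle between 3 and 6 and of those lower between 1 and 2. Under olaparib against vehicle the count lower ran from 0 to 1 and the count higher from 6 to 8. Fold changes near 0 changed direction without single libraries: TYMS under VIC-1911 at 2 days (-0.015 to 0.14), DTYMK under the combination against vehicle (-0.10 to 0.15, below 0 without VEH replicate 2, VEH replicate 3 or COMBO replicate 1), SAMHD1 in the combination against olaparib (-0.014 to 0.11) and against VIC-1911 (-0.11 to 0.0059), and the RRM2B interaction (-0.076 to 0.015).

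Correlations of same-numbered libraries ran from -0.00033 to 0.127 at 2 days (3 pairs) and from -0.116 to 0.265 at 7 days (18 pairs). Differently numbered libraries had -0.093 to 0.061 (6 pairs) and -0.318 to 0.271 (36 pairs). The medians were 0.034 and 0.026 for the same number, and -0.048 and -0.028 for different numbers. With 3 libraries a group these values cannot settle whether the numbers pair the samples. With the replicate number as a block, 2 members were lower in the combination than in vehicle in place of 1 (TK1, edgeR adjusted p = 0.0351), and 1 was higher in the combination than in olaparib in place of 0 (RRM2B, edgeR adjusted p = 0.0456).

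Depth limits TYMS most, at 48 to 336 counts a library; OLA replicate 1 had 4967931 counted reads, the fewest at 7 days. Intervals from these fits cover the spread between libraries of 1 cell line.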
